A study of Mus musculus with 18 samples.

Results

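In an RNA-seq table of mouse naive CD4 T cells, 296 rows named for microRNAs carried signal, beside the 6 hairpins of the miR-23, miR-27 and miR-24 clusters that the study manipulated. They were taken from the 1077 rows whose symbol starts with Mir and a digit or with Mirlet7, with Mir23a, Mir27a, Mir24-2, Mir23b, Mir27b and Mir24-1 left out, as those with at least 1 RPKM (reads scaled to transcript length and library size) in at least 3 of the 18 libraries. Of the 296, 293 are hairpins and 3 are longer host transcripts, Mir17hg, Mir22hg and Mirlet7bhg. The whole table holds 23951 gene rows after repeated symbols were merged. A further 169 microRNA rows were above 0 in some library without meeting the rule, and 606 were listed at 0 throughout. The choice of rows used these same RPKM values, so that the rows have signal is a description and not a finding.

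The cells were CD4+CD25-CD62Lhi T cells sorted from C57BL/6 mice of 6 genotypes, with 3 libraries each. All comparisons are with WT mice. Cluster Tg mice had T cell-specific gain of the entire cluster, and each of the miR-27 Tg, miR-24 Tg and miR-23 Tg lines over-expressed 1 family member in T cells. DKO mice carried a T cell-specific deletion of the a cluster and of the b cluster. The sources used here do not give the promoter of the transgenes, the Cre line, or whether each library came from its own animal, so a p-value covers only the spread among libraries, which may be technical in part. Columns 3 and 4 of the miR-23 Tg genotype carry the same name in the table and have no replicate number here.

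A microRNA gene is transcribed as a long primary transcript, often a non-coding RNA or the intron of a protein-coding gene. Drosha and Dgcr8 cut the hairpin out in the nucleus, Dicer1 trims it in the cytoplasm, and the mature strand is loaded onto an Argonaute protein, where its seed (bases 2 to 8) pairs with target mRNAs. In T cells, miR-181a tunes the strength of T cell receptor signalling, the miR-17 to miR-92 cluster favours proliferation and survival, the miR-29 family restrains the Th1 programme, and let-7 is tied to the quiescence of naive cells. Libraries of the TruSeq RNA kind hold fragments longer than a mature microRNA, so the values below describe hairpin-containing RNA and not mature microRNA.

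The mature strands of the hairpins that differed between genotypes, or that had reads in nearly every library, are shown first, since their seeds sort them into families. Sequences are RefSeq's on mouse build GRCm38.p6, 5′ to 3′, with the seed in capitals. The mature strands of 256 rows were matched. The first set are the let-7 hairpins, which share 1 seed.
let-7a-5p: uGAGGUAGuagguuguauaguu
let-7f-5p: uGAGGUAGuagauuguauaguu
let-7d-5p: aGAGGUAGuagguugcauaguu
let-7g-5p: uGAGGUAGuaguuuguacaguu
The second set holds the other hairpins that passed the test in at least 1 comparison and matched a well-known family, with miR-29b beside miR-29a because their seeds are identical.
miR-29a-3p: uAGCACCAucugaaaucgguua
miR-29b-3p: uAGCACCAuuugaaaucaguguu
miR-16-5p: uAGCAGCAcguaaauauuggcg
miR-181a-5p: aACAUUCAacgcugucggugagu
miR-30c-5p: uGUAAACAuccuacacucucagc
miR-103-3p: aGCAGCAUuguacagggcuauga
miR-425-5p: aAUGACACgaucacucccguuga
The third set holds the hairpins in the exons of Mir17hg and the introns of Mcm7, which had reads in most libraries of every genotype. Those of miR-17, miR-20a, miR-93 and miR-106b share a seed across the pair of genes.
miR-17-5p: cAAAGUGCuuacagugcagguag
miR-20a-5p: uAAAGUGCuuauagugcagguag
miR-93-5p: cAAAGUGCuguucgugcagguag
miR-106b-5p: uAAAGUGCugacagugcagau
miR-18a-5p: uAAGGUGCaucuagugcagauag
miR-19a-3p: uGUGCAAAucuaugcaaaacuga
miR-25-3p: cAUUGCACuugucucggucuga
Of all 256, 70 shared a seed with at least 1 other, in 32 groups, and the let-7 group was the largest with 6 members. The strands of the manipulated microRNAs themselves are given for comparison.
miR-23a-3p: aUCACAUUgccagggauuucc
miR-27a-3p: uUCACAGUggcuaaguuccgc
miR-24-3p: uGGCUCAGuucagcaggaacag
None of the 256 had a strand, of either arm, whose seed matched one of theirs, so the values of these rows are not those of seed relatives of the transgenes. Rows without a match, such as Mir15a, Mir150, Mir30d and Mir5107, were not checked.

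The unit needs care in rows this short. Among hairpin rows of one length, RPKM values multiplied by the library's relative depth fell on whole multiples of 1 smallest value, which is the value of 1 read. In WT replicate 1 that value fell from 546 RPKM for a hairpin of 58 nt to 5.99 RPKM for one of 139 nt. It thus changed 91.2-fold over lengths that differ 2.40-fold, and 54 lengths lay on this curve. RPKM levels therefore cannot be compared between hairpins, and 1 read is worth over 4 RPKM in every library at every length on the curve. For rows whose values are whole reads, a threshold of 1 RPKM in 3 libraries thus asks for at least 1 read in each of 3, while a row without whole reads, such as Mir5131, can pass on values below 1 read. Of 2552 values above 0 and under 20 reads, in 257 hairpins with a length on the curve, 90.9% came out whole within 0.02 of a read at 1 read and 0.06 at 3 or more.

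**Figure D1:**
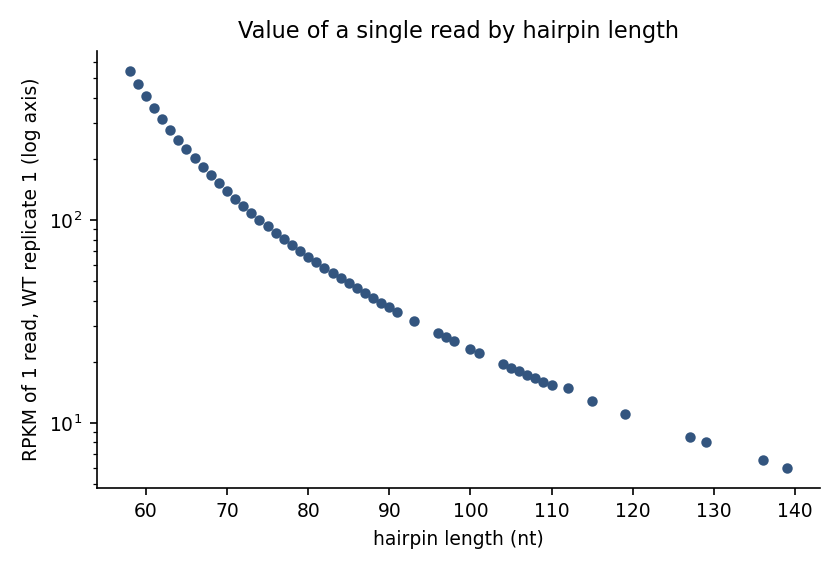
RPKM that 1 read is worth in WT replicate 1 (vertical, log axis) against hairpin length in nt (horizontal); each of the 54 points is 1 length. The value falls from 546 RPKM at 58 nt to 5.99 RPKM at 139 nt.

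Whole reads were recovered for 255 of the 293 hairpins, 228 of them through their length and 27 as multiples of the row's own lowest value, which may itself be more than 1 read. The median hairpin had 15 reads over all 18 libraries together. At most 10 reads were behind 96 of them and at most 5 behind 54, while 33 had over 100. Of 2514 values above 0, 33.5% were a single read. The 5 hairpins with most reads, Mir703, Mir3064, Mir7058, Mir142b and Mir686, held 54.9% of all 25431 reads. Wholeness was checked only under 20 reads. Mir703, Mir7058, Mir142b and Mir686 had no value that low and Mir3064 only 1, so their reads rest on hairpin length with little or no such check. Values above 0 but under 0.001 RPKM, smaller than any read could give, appeared in 28 hairpins.

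The hairpins with most reads were not on the list of T cell microRNAs described below. Mir703 had between 193 and 399 reads in 16 libraries, with 729 in DKO replicate 3 and 1142 in miR-27 Tg replicate 3, and it lies on the strand opposite Cfap299. Mir3064, in an intron of the RNA helicase gene Ddx5 that some transcripts keep as exon, had 92 to 245 reads in 17 libraries and 15 in miR-27 Tg replicate 3. Mir686 lies in an exon of the proteasome gene Psmb5 and had 52 to 129 reads. Mir142b, opposite the miR-142 host gene, had 49 to 146 reads in 17 libraries and 258 in miR-27 Tg replicate 3. Without strand, its reads cannot be told from those of the miR-142 transcript, a well-known microRNA of blood cells. None of these 4 passed the test in any comparison with WT. By mean RPKM, which favours the shortest rows, the top 10 also held Mir6236, whose values are not whole reads (2053 to 42302 RPKM), and Mir7115, Mir7050, Mir6989, Mir6970 and Mir6910, with 0 to 21 reads in any library and no call.

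Some hairpins are whole short introns. Mir7058 (chr7:126367971-126368045, minus strand) spans an entire intron of 75 nt in Lat, the adaptor that links the T cell receptor to its signalling cascade. It had 115, 124 and 91 reads in WT, 130, 129 and 269 in DKO, 68, 133 and 121 in miR-23 Tg, 144, 96 and 82 in miR-24 Tg, 147, 183 and 206 in miR-27 Tg, and 113, 126 and 139 in cluster Tg. In RPKM, DKO replicate 3 and miR-27 Tg replicate 3 stood above the other 16 libraries. They were also the top libraries for Lat itself, at 1130 and 2383 RPKM against 611 to 984 in the others. The same 2 libraries stood apart for other genes in either direction, so this match is not particular to Mir7058 and Lat. Rps21 was 6534 and 11019 RPKM in them against 1214 to 3271 in the others, and Ago2 6.03 and 1.54 against 31.9 to 46.4. Neither Mir7058 (limma adjusted p of 0.25 in miR-27 Tg) nor Lat (0.12) passed the test in any genotype. Mir1982 fills an intron of 74 nt in Oaz1, an inhibitor of polyamine synthesis, with 12 to 40 reads and no call. Altogether 12 hairpins were whole short introns, with a median of 69 reads over 18 libraries, and none was called anywhere.

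By position, 125 hairpins lay in an intron, 39 in an exon, 38 in an intron kept as exon in another transcript, 15 partly in an exon, 16 opposite a gene and 14 between genes, with 34 not placed. The median over 18 libraries was 12 reads for intronic hairpins, 22 for those in introns kept as exon, and 56 for those in exons. Reads of the surrounding gene that cross a hairpin cannot be told from reads of the hairpin precursor in these values, and the strand is not given.

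A list of microRNAs known in T cells had 75 rows in the table, of which 38 met the rule, 34 with recovered reads. They include 5 in the exons of Mir17hg and 29 elsewhere. From a second list, of microRNAs of other lineages, 1 of 14 rows met the rule: Mir199a-1, which lies opposite Dnm2 and had 0 to 6 reads. The myeloid Mir223 was above 0 in 1 library only. The T cell hairpins Mir155 and Mirlet7c-1 were listed at 0 in all 18 libraries.

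Over the 29 T cell hairpins outside Mir17hg, the WT libraries had 11, 20 and 10 reads in sum, those of DKO 16, 10 and 9, and those of miR-23 Tg 20, 13 and 11. The miR-24 Tg libraries had 42, 32 and 26, those of miR-27 Tg 47, 69 and 19, and those of cluster Tg 119, 73 and 85. Divided by relative depth (WT replicate 1 at 1), the first 9 libraries lay between 7.35 and 18.005 reads and the other 9 between 27.0 and 86.1, without overlap. Of these 29 hairpins, 12 were listed at 0 in all of the first 9 libraries and met the rule only through the other 9. The lack of overlap was thus set in part by the choice of rows. The sums were made with earlier results known, and no test was made of them. The Mir17hg hairpins had 20.4 to 29 reads per unit of depth in WT, 8.98 to 22.7 in DKO and 19.5 to 19.8 in miR-23 Tg. They had 28.1 to 34.2 in miR-24 Tg, 3.15 to 40.1 in miR-27 Tg and 28.6 to 44.1 in cluster Tg. Here the 9 libraries of WT, DKO and miR-23 Tg overlapped the other 9, through WT replicate 1 (29) and miR-27 Tg replicate 3 (3.15). In miR-27 Tg replicate 3 these hairpins had 2 reads in all.

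**Figure D2:**
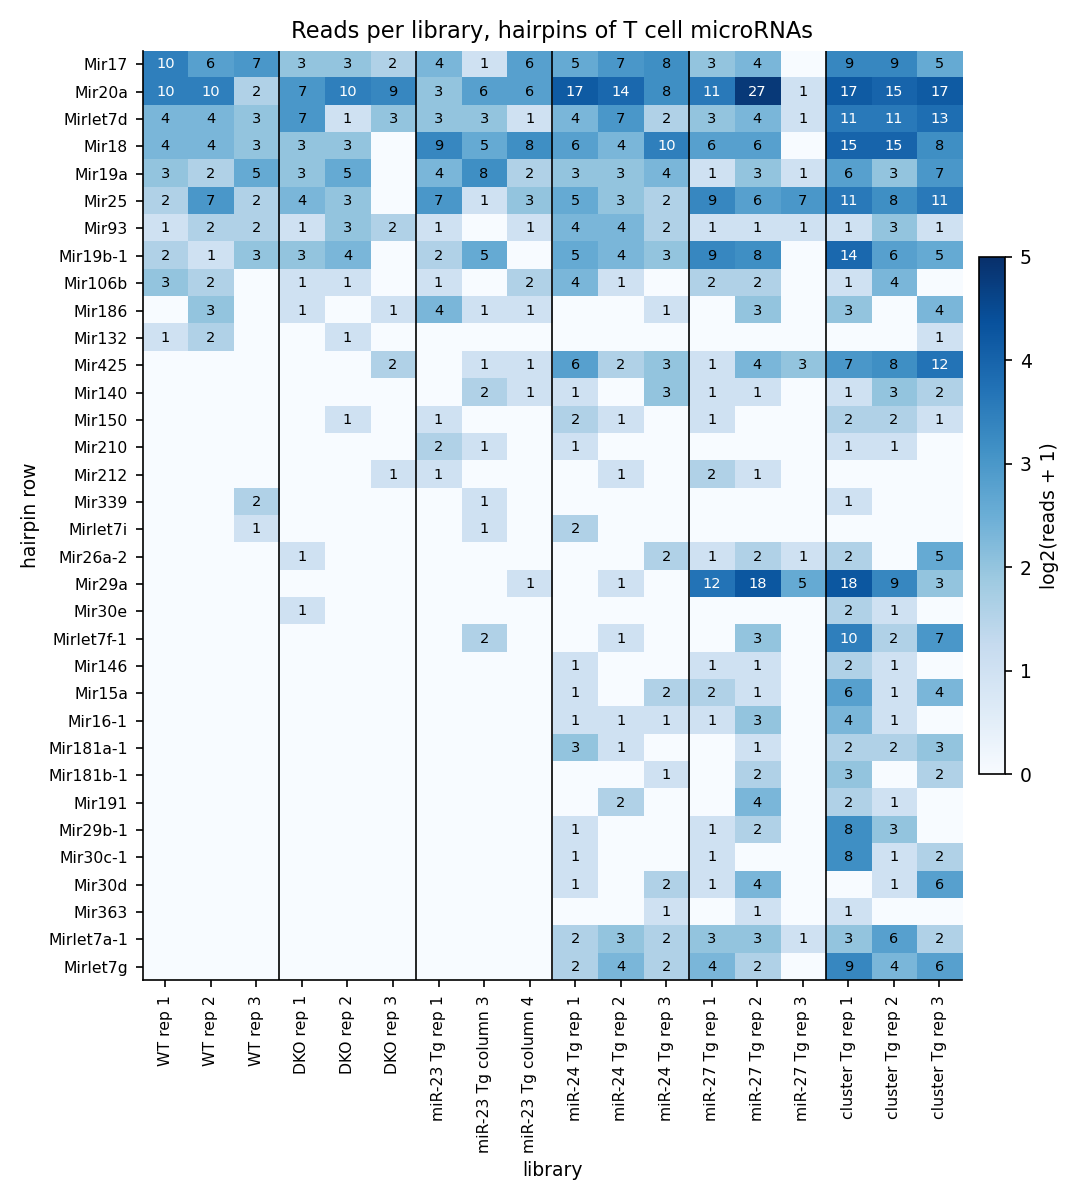
Reads (number in each cell, blank where none) of 34 T cell microRNA hairpins (rows) in 18 libraries (columns, grouped by genotype), with colour for log2(reads + 1). The upper rows, with Mir17, Mir20a and Mirlet7d, have reads across the genotypes, and the lowest 12 rows have them in miR-24 Tg, miR-27 Tg and cluster Tg libraries only.

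Of all 293 hairpins, 20 were listed at 0 in each of the 9 libraries of WT, DKO and miR-23 Tg and had reads in some of the other 9. They met the rule only through those other 9. Over all 11099 rows tested the share with that pattern was 0.198%, which is 22 rows with these 20 among them. Rows of ordinary genes rest on far more reads and are seldom listed at 0, so that share is no separate background. Of the 20, 12 belong to the T cell list: Mir146, Mir15a, Mir16-1, Mir181a-1, Mir181b-1, Mir191, Mir29b-1, Mir30c-1, Mir30d, Mir363, Mirlet7a-1 and Mirlet7g. The opposite pattern held for 5 hairpins (0.0450% of all rows, which is these 5 alone), none in the T cell list: Mir1930, Mir202, Mir5619, Mir6399 and Mir7021. Across all hairpins the number above 0 ran from 147 to 169 in WT, 128 to 183 in DKO, 171 to 180 in miR-23 Tg, 165 to 191 in miR-24 Tg, 85 to 202 in miR-27 Tg, and 187 to 211 in cluster Tg. In the T cell list it ran from 12 to 14 in WT, 9 to 16 in DKO, 16 to 18 in miR-23 Tg, 23 to 27 in miR-24 Tg, 13 to 30 in miR-27 Tg and 26 to 34 in cluster Tg.

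**Figure D3:**
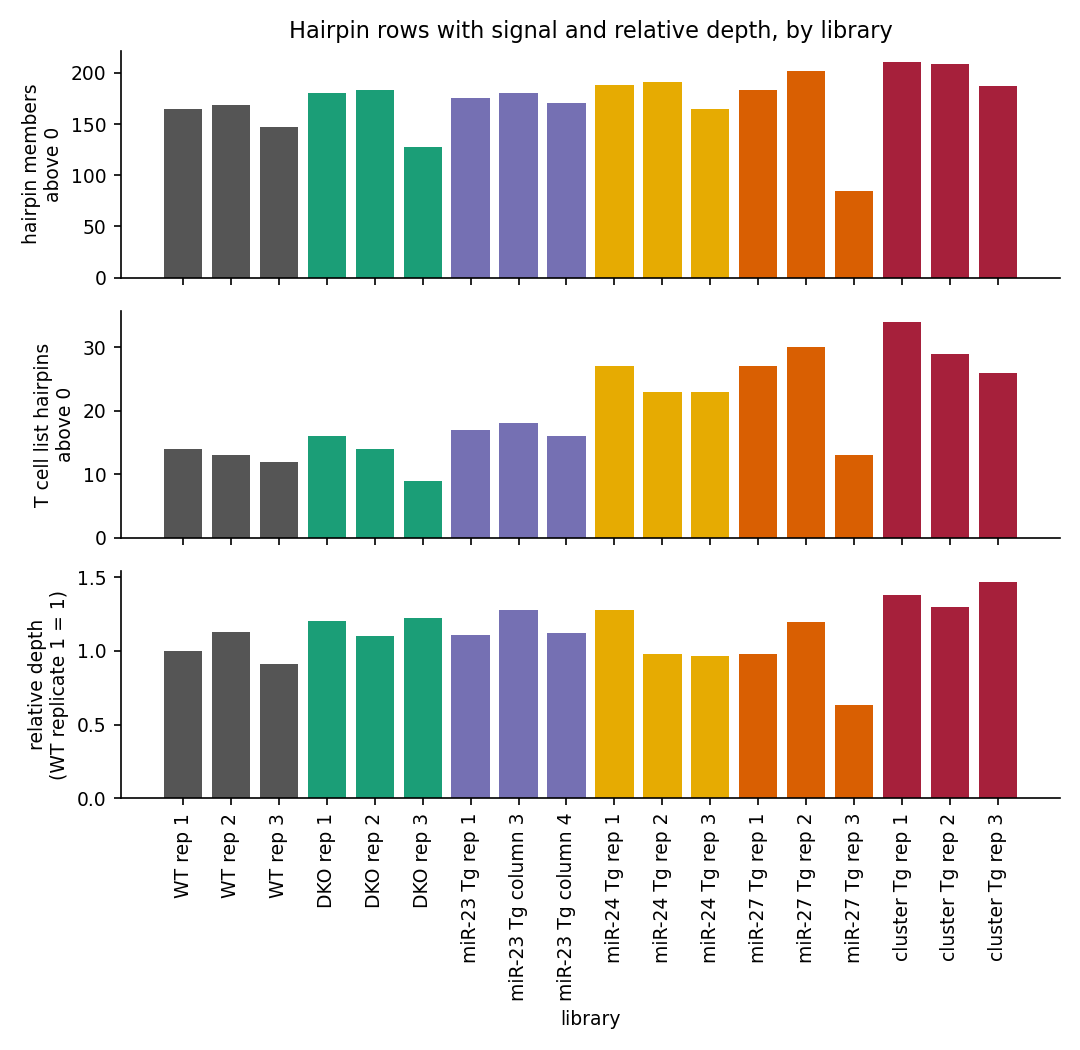
Bars show, for each of 18 libraries, the number of the 293 hairpins above 0 (top), the number of the 38 T cell list hairpins above 0 (middle) and the relative depth with WT replicate 1 at 1 (bottom). The T cell list bars of the cluster Tg libraries (26 to 34) lie above those of WT (12 to 14), and miR-27 Tg replicate 3 is lowest for depth (0.634) and for hairpins above 0 (85).

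Values that move with this split are given here once. Relative depth was 0.912 to 1.13 in WT and 1.30 to 1.47 in cluster Tg, but 0.634 to 1.28 in miR-24 Tg and miR-27 Tg together. The summed RPKM of 4 B cell markers was 3.41 to 14.2 in WT, DKO and miR-23 Tg libraries and 13.8 to 114 in the other 3 genotypes. For 4 myeloid markers these ranges were 1.28 to 4.14 and 6.18 to 30.6, and for the CD8 markers Cd8a and Cd8b1 they were 7.95 to 30.3 and 29.7 to 78.8. NK cell markers (2 genes) summed to 0.0327 to 0.429 and 0.563 to 3.24, while the ranges of the neutrophil and erythroid markers overlapped, with their highest sums, 565 and 286, in miR-27 Tg. Of these lists, 1 of the 4 myeloid markers was at 0 in all 3 WT libraries. The 7 naive CD4 T cell markers summed to 2694 to 3276 in every library, with none at 0, as the label has it. The sums of 3 activated T cell markers overlapped, at 183 to 511 and 140 to 433. By genotype mean, Cd44 was 6.73 to 14.8 RPKM in WT, DKO and miR-23 Tg and 16.3 to 21.6 in the other 3. Il2ra was 0.566 to 0.811 and 1.52 to 3.96, while Cd69, at 202 to 474 and 170 to 227, was not higher there. The part of depth, of these other cells and of activation markers in the hairpin values was not tested. In bulk RNA, fewer cells of a type and less RNA per cell cannot be told apart, nor can the genotypes be told apart from any separate preparation of these sets of libraries, which the sources used here do not give.

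Tests were made with limma on log2(RPKM + 1) over all 11099 rows with at least 1 RPKM in at least 3 libraries, and a row is called where its Benjamini-Hochberg adjusted p is under 0.05. Because a single read moves a hairpin by several log2 units, the test comes close to asking in which libraries reads were present. Since the rows were chosen on these values, the calls are a description of which rows stand out.

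In cluster Tg against WT, 11 of the 296 rows were called, all higher, against 8.48% of all rows (941 of 11099, 5.63% higher and 2.85% lower). At 3.72% the share among the microRNA rows was below that background. The called rows were Mirlet7bhg and 10 hairpins, 8 of them from the T cell list: Mirlet7a-1, Mirlet7f-1, Mirlet7g, Mir29a, Mir425, Mir30c-1, Mir181a-1 and Mir15a, with Mir103-2 and Mir7054. The median log2 difference over the 38 T cell list rows was 2.57 and over the 293 hairpins 0.26, against 0 over all rows. These medians depend on the pseudocount because so many rows are listed at 0. Of the 38 rows 12, and of the 293 hairpins 20, were at 0 in all WT, DKO and miR-23 Tg libraries. They met the rule only through the other 3 genotypes, and their difference from WT could not be negative. The medians were thus set in part by the choice of rows. With DKO replicate 3 and miR-27 Tg replicate 3 both left out, 21 microRNA rows and 29.2% of all rows were called. Without WT replicate 1, WT replicate 3 or cluster Tg replicate 1, 7 were called.

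In miR-24 Tg against WT, 4 rows were called, all higher, against 3.59% of all rows (2.32% higher and 1.26% lower): Mirlet7a-1, Mirlet7g, Mir425 and Mirlet7bhg. Without the 2 libraries named above the number was 10, with 17.5% of all rows, and without WT replicate 1 it was 2. In miR-27 Tg against WT, 8 rows were called against 8.95% of all rows (5.77% higher and 3.18% lower). The higher ones were Mirlet7a-1, Mirlet7g, Mir29a, Mir425, Mirlet7bhg, Mir5107 and Mir6516, and Mir7033 was lower. Without the 2 libraries the number was 23, with 19.9% of all rows, without miR-27 Tg replicate 3 alone it was 15, and without WT replicate 1 it was 4.

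In miR-23 Tg against WT no row was called by limma, against 0.0450% of all rows, and 21 had an unadjusted p under 0.05. In DKO against WT none was called, against 0% of all rows, and 13 had an unadjusted p under 0.05. With only the 6 libraries of the 2 genotypes in the fit, limma called 3 in miR-23 Tg and 2 in DKO. The F test over the 6 genotypes called 11 rows, against 19.0% of all rows, and 27 without miR-27 Tg replicate 3. These comparisons share their WT libraries, and that 3 of them call Mirlet7a-1, Mirlet7g, Mir425 and Mirlet7bhg is not independent evidence.

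The let-7 hairpins come from several genes. Mirlet7a-1 (chr13:48538179-48538272, minus strand) lies in an exon of the non-coding transcript 6720427I07Rik together with Mirlet7f-1 and Mirlet7d. It was listed at 0 in all 9 libraries of WT, DKO and miR-23 Tg, and had 2, 3 and 2 reads in miR-24 Tg, 3, 3 and 1 in miR-27 Tg, and 3, 6 and 2 in cluster Tg. Each of the last 9 libraries was thus above each of the first 9 (limma adjusted p of 7.8e-07 in miR-24 Tg, 3.2e-07 in miR-27 Tg and 5.6e-07 in cluster Tg). These calls were kept in all 16 alternatives run for each comparison. The 9 libraries at 0 add no spread to the fit, so these adjusted p-values do not measure the sampling of so few reads.

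Mirlet7f-1, in the same transcript, had 10, 2 and 7 reads in cluster Tg, and apart from those only 2 in miR-23 Tg column 3, 1 in miR-24 Tg replicate 2 and 3 in miR-27 Tg replicate 2. It was called in cluster Tg alone (limma adjusted p of 0.03), a call lost without any 1 of the 6 libraries compared. Mirlet7d, on the same transcript, had reads in all 18 libraries. They numbered 4, 4 and 3 in WT, 7, 1 and 3 in DKO, 3, 3 and 1 in miR-23 Tg, 4, 7 and 2 in miR-24 Tg, 3, 4 and 1 in miR-27 Tg, and 11, 11 and 13 in cluster Tg. The cluster Tg libraries were the highest, but at their depth the log2 difference from WT was 1.21 with an adjusted p of 0.27. The difference between these hairpins of a single transcript was not tested.

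Mirlet7g (chr9:106178840-106178927, plus strand) lies in an intron of Wdr82, a subunit of histone methyltransferase and phosphatase complexes. Listed at 0 in WT, DKO and miR-23 Tg, it had 2, 4 and 2 reads in miR-24 Tg, 4, 2 and 0 in miR-27 Tg and 9, 4 and 6 in cluster Tg, with adjusted p of 0.0088, 0.038 and 0.0018. The miR-27 Tg call was lost without miR-27 Tg replicate 1 or 2 or any WT library, with no filter on low values and with only the 6 libraries of the 2 genotypes fitted (adjusted p of 0.44). It held without replicate 3, the library at 0, and was kept in 8 of 16 alternatives. Its host Wdr82 was level: 64.0, 68.8 and 64.7 RPKM in WT against 68.4, 67.9 and 70.3 in cluster Tg, a log2 difference of 0.06 ± 0.09 (SE, adjusted p of 0.82).

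Mirlet7bhg is the host transcript of let-7b and let-7c-2, and as a long transcript it is measured well beyond single reads. It stood at 1.61, 1.77 and 1.02 RPKM in WT, 1.88, 1.86 and 1.64 in DKO, and 2.53, 2.84 and 2.56 in miR-23 Tg. It stood at 4.39, 6.84 and 7.79 in miR-24 Tg, 12.5, 15.8 and 45.1 in miR-27 Tg, and 22.5, 15.6 and 11.0 in cluster Tg. All 9 libraries of the last 3 genotypes lay above all 9 of the first 3. Against WT it rose by a log2 of 2.78 ± 0.36 in cluster Tg (SE, adjusted p of 0.00034), 3.17 ± 0.36 in miR-27 Tg (0.00016) and 1.56 ± 0.36 in miR-24 Tg (0.028). The differences in miR-23 Tg (0.58, adjusted p of 0.80) and DKO (0.19, adjusted p of 1) were not called. The miR-24 Tg call was lost without miR-24 Tg replicate 2 or 3 or any WT library, and at a pseudocount of 5 (adjusted p of 0.18). Without miR-27 Tg replicate 3 the miR-27 Tg difference was 2.63, and the miR-27 Tg call was lost with only the 6 libraries of the 2 genotypes fitted (adjusted p of 0.085). Its own hairpins, Mirlet7b and Mirlet7c-2, gave no usable values: most are far smaller than a read, which no whole read gives.

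Mir15a and Mir16-1 sit in an intron of Dleu2, a long non-coding RNA, and are known to restrain the cell cycle and Bcl2. Mir15a had 6, 1 and 4 reads in cluster Tg (adjusted p of 0.017), 1, 0 and 2 in miR-24 Tg and 2, 1 and 0 in miR-27 Tg, as multiples of its own lowest value, and it was listed at 0 elsewhere. The cluster Tg call was lost without cluster Tg replicate 1 or 3 or any WT library. Mir16-1 (chr14:61631880-61631972, minus strand) had 1, 1 and 1 reads in miR-24 Tg, 1, 3 and 0 in miR-27 Tg and 4, 1 and 0 in cluster Tg, and was called in the F test only (adjusted p of 0.043), a call kept in 8 of 27 alternatives.

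Dleu2 itself was far better measured. It stood at 2.90, 2.92 and 2.11 RPKM in WT, 3.18, 4.16 and 3.48 in DKO, and 3.65, 3.55 and 4.58 in miR-23 Tg. It stood at 6.89, 7.87 and 6.62 in miR-24 Tg, 17.8, 16.02 and 34.9 in miR-27 Tg, and 20.2, 16.4 and 16.1 in cluster Tg, again with no overlap between the first 9 libraries and the last 9. Dleu2 rose by a log2 of 2.35 ± 0.22 in cluster Tg (SE, adjusted p of 2.9e-05), 2.64 ± 0.22 in miR-27 Tg (1.8e-05) and 1.16 ± 0.22 in miR-24 Tg (0.0090). The increases in miR-23 Tg (0.44, adjusted p of 0.71) and DKO (0.34, adjusted p of 1) were not called.

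**Figure D4:**
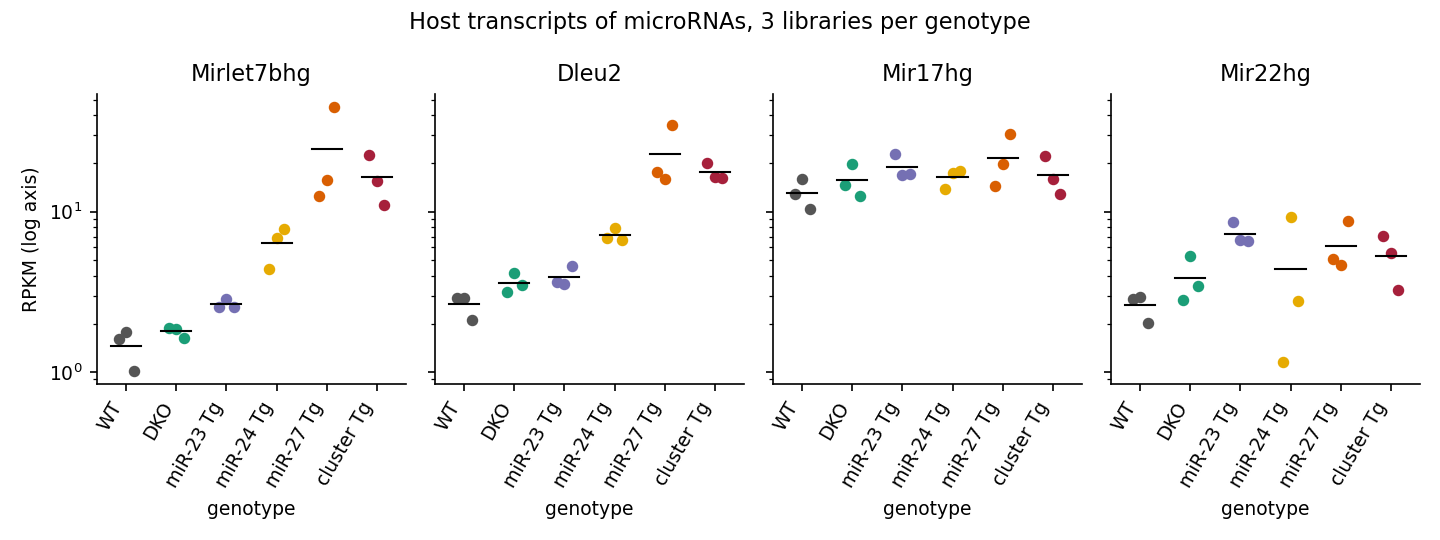
RPKM (log axis) of Mirlet7bhg, Dleu2, Mir17hg and Mir22hg in 6 genotypes; points are the 3 libraries of each and bars their mean. Mirlet7bhg runs from 1.02 to 2.84 in WT, DKO and miR-23 Tg and from 4.39 to 45.1 in the other 3 genotypes, while the Mir17hg ranges of all genotypes overlap with at least 1 other.

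Mir17hg, the transcript of the miR-17 to miR-92 cluster, was 13.1 ± 2.80 RPKM in WT (SD, n = 3), 15.7 ± 3.67 in DKO, 19.0 ± 3.40 in miR-23 Tg, 16.4 ± 2.18 in miR-24 Tg, 21.5 ± 8.06 in miR-27 Tg and 17.02 ± 4.67 in cluster Tg. No difference from WT was called (lowest adjusted p of 0.15, in miR-27 Tg). Its hairpin Mir20a had reads in all 18 libraries: 10, 10 and 2 in WT and 17, 15 and 17 in cluster Tg, with 27 in miR-27 Tg replicate 2 and 1 in replicate 3. Mir17 had 10, 6 and 7 in WT, 9, 9 and 5 in cluster Tg, and none in miR-27 Tg replicate 3. Mir18, Mir19a and Mir19b-1 had 0 to 15 reads. None of the 5 was called in any comparison.

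Mir22hg, the transcript named for miR-22, was 2.61 ± 0.51 RPKM in WT (SD, n = 3) and 7.28 ± 1.17 in miR-23 Tg, whose 3 libraries all lay above those of WT. That difference, a log2 of 1.20 ± 0.43 (SE), was not called (adjusted p of 0.47). The miR-24 Tg libraries of Mir22hg spread from 1.16 to 9.28 RPKM.

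Mir29a (chr6:31062660-31062747, minus strand) lies between annotated genes, next to Mir29b-1. It had 12, 18 and 5 reads in miR-27 Tg and 18, 9 and 3 in cluster Tg, against 0 in WT and DKO, 1 in miR-23 Tg column 4 and 1 in miR-24 Tg replicate 2. It was called in miR-27 Tg (adjusted p of 0.0018) and cluster Tg (0.0031) in all 16 alternatives of each, and not in miR-24 Tg (0.72). Whether miR-27 Tg and miR-24 Tg differ for it was not tested. Mir29b-1 had 1, 0 and 0 reads in miR-24 Tg, 1, 2 and 0 in miR-27 Tg and 8, 3 and 0 in cluster Tg, with no call. The second locus, Mir29b-2 and Mir29c in A330023F24Rik, held values that were not whole reads in all genotypes and no call.

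Mir425 (chr9:108568777-108568861, plus strand) lies in an exon of 4833445I07Rik, close to Mir191. It had 6, 2 and 3 reads in miR-24 Tg, 1, 4 and 3 in miR-27 Tg and 7, 8 and 12 in cluster Tg, against 0 in WT, 2 in DKO replicate 3 and 1 in each of miR-23 Tg columns 3 and 4. It was called in cluster Tg (adjusted p of 0.0038), miR-27 Tg (0.013) and miR-24 Tg (0.018), the last lost without miR-24 Tg replicate 1 or 3 or any WT library. Mir191 had 2, 1 and 0 reads in cluster Tg and none in WT, with no call. Dalrd3, the protein-coding gene at the same locus, was 34.5 to 38.9 RPKM in WT and 29.4 to 34.5 in cluster Tg, with no call.

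Mir181a-1 (chr1:137966455-137966541, plus strand) had 3, 1 and 0 reads in miR-24 Tg, 0, 1 and 0 in miR-27 Tg and 2, 2 and 3 in cluster Tg, and was listed at 0 in the other 9 libraries. Its call in cluster Tg (adjusted p of 0.015) was lost without cluster Tg replicate 1 or 3 or WT replicate 1 or 3. Mir181b-1, on the same transcript, had 3, 0 and 2 reads in cluster Tg and no call. Mir30c-1, in an intron of the transcription factor subunit gene Nfyc, had 8, 1 and 2 reads in cluster Tg and 1 in each of miR-24 Tg and miR-27 Tg replicate 1. Its call (adjusted p of 0.012) was lost without cluster Tg replicate 1, which held 8 of its reads. Nfyc stood at 16.4 to 17.7 RPKM in WT and 16.8 to 19.1 in cluster Tg, with no call.

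Mir103-2, in an intron of the pantothenate kinase gene Pank2, had 3, 5 and 5 reads in cluster Tg and 0 in WT, with 0 to 6 elsewhere. It was called in cluster Tg (adjusted p of 0.037), a call lost without any 1 of the 6 libraries or with no filter on low values. Mir7054, a 62-nt hairpin in an intron of Scaf1, was called in cluster Tg (0.0036) in all 16 alternatives on 1, 2 and 1 reads, with 1 read in miR-24 Tg replicate 3 and 0 in every other library. Such a call rests on 4 reads in the genotype, and its adjusted p likewise does not measure their sampling. Mir6397, opposite Podn, had 2, 1 and 2 reads in cluster Tg, 1, 1 and 0 in WT and 1 in miR-24 Tg replicate 1, and was called in the F test only (adjusted p of 0.022), lost without any 1 of the cluster Tg libraries.

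The 3 hairpins called in miR-27 Tg alone were outside the T cell list. Mir6516, in an intron of the small nucleolar RNA host gene Snhg20, had 8, 9 and 14 reads in WT and 18, 33 and 84 in miR-27 Tg, with 7 to 16 in the other libraries. It rose by a log2 of 2.02 ± 0.57 (SE, adjusted p of 0.04). Without miR-27 Tg replicate 3 the difference was 1.17 with an adjusted p of 0.072. The call was also lost without any 1 WT library, with no filter on low values and with only the 6 libraries of the 2 genotypes fitted (adjusted p of 0.40), and was kept in 10 of 16 alternatives. Mir5107 had 0, 2 and 0 reads in WT and 4, 8 and 4 in miR-27 Tg, as multiples of its lowest value. Its call (adjusted p of 0.036) was lost without any 1 of the miR-27 Tg libraries and without WT replicate 1 or 3, and it was kept in 7 of 16 alternatives. Mir7033, in an intron of the nuclear pore gene Pom121, was the only row called lower. It had 1, 3 and 1 reads in WT and was listed at 0 in all 3 miR-27 Tg libraries (adjusted p of 0.023), a call lost without any 1 WT library, and it had 2, 1 and 1 reads in cluster Tg.

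The hairpins in introns of Mcm7, a subunit of the replicative helicase, had reads in every genotype. Mir25 had 2, 7 and 2 reads in WT, 9, 6 and 7 in miR-27 Tg and 11, 8 and 11 in cluster Tg. In RPKM the lowest cluster Tg library (318) was below the highest of WT (322), and there was no call (log2 difference of 1.24, adjusted p of 0.76). Mir93 and Mir106b had 0 to 4 reads each and no call. Mcm7 itself rose in cluster Tg by a log2 of 0.49 ± 0.12 (SE, adjusted p of 0.018) and by 0.48 ± 0.12 (0.020) in miR-27 Tg.

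The largest fitted differences that were not called belonged to rows with few reads. In cluster Tg, Mir150, abundant in resting lymphocytes as a mature microRNA, had 2, 2 and 1 reads, with 0 in WT, and an adjusted p of 0.10. In miR-23 Tg, Mir6979, Mir7036b and Mir7081 had reads in all 3 libraries and none in WT, and their adjusted p was 0.33, 0.43 and 0.41. That pattern was shown by 0.0450% of all rows, which is 5 rows with these 3 among them. Shares of all rows here and below include the hairpins themselves. In DKO, Mir6937 (1, 1 and 1 reads) and Mir7016 (2, 2 and 1) did the same, against 0.0270% of all rows, and Mir7682 was at 0, 0 and 2 reads against 1, 1 and 2 in WT, with an adjusted p of 1 for each. In miR-24 Tg, Mir7006 had 0, 0 and 1 reads against 3, 3 and 4 in WT (adjusted p of 0.29), and in miR-27 Tg, Mir6936 had none against 3, 0 and 1 (0.29).

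Presence in all 3 libraries of a genotype with 0 in all 3 of WT was most frequent in cluster Tg, where 16 hairpins showed it (0.171% of all rows), against 5 in miR-24 Tg (0.0901%), 4 in miR-27 Tg (0.0721%), 3 in miR-23 Tg and 2 in DKO. Over all rows tested these were 19, 10, 8, 5 and 3 rows in the same order, with the hairpins among them. The reverse, reads in all 3 WT libraries and none in the genotype, was shown by Mir6403 in miR-24 Tg (0.00901% of all rows, that row alone) and by Mir3058 and Mir7033 in miR-27 Tg (0.0450%, 5 rows). Of the 16 in cluster Tg, 10 belong to the T cell list. A single read more or less changes these counts, and all 3 cluster Tg libraries were deeper than those of WT.

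Other T cell hairpins had few reads and no call. Mir140, in Wwp2, had 1, 3 and 2 reads in cluster Tg and none in WT (adjusted p of 0.061). Mir26a-2, in Ctdsp2, had 1, 2 and 1 reads in miR-27 Tg and none in WT (0.071), while Ctdsp2 itself rose in miR-27 Tg by a log2 of 0.73 ± 0.10 (SE, adjusted p of 0.00048) and in cluster Tg by 0.53 ± 0.10 (0.0032). Mir146, a brake on NF-kappaB signalling, had 2, 1 and 0 reads in cluster Tg and 1, 1 and 0 in miR-27 Tg. Mir30d, Mir30e, Mir132, Mir186, Mir210, Mir212, Mir339, Mir363 and Mirlet7i had 0 to 6 reads in any library. Mir22 held values far below 1 read in several libraries.

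Over the members, 185 host genes had a value in the test. Of these, 14 were called in cluster Tg (6 higher and 8 lower), 7 in miR-24 Tg (3 and 4), 17 in miR-27 Tg (12 and 5), and 0 in miR-23 Tg and DKO, with median log2 differences between -0.05 and 0.09. As shares these were 7.57% in cluster Tg against 8.48% of all rows, 3.78% in miR-24 Tg against 3.59%, and 9.19% in miR-27 Tg against 8.95%, which is near the background in each. Hosts and hairpins were thus called together in cluster Tg for Dleu2 and Mir15a. For Mirlet7g in Wdr82 and Mir30c-1 in Nfyc the hairpin was called and the host was not.

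Of the hairpins that overlap the manipulated ones, Mir3074-1 met the rule. It lies opposite Mir24-1, in an intron of Fancc on the other strand. It was 115, 31.8 and 0 RPKM in WT, 0 in all 3 DKO libraries, 58.7 to 231 in cluster Tg, and between 0 and 426 in the remaining libraries, some of them values far below 1 read. No comparison called it, and reads of Mir24-1 and Mir3074-1 cannot be told apart without strand.

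Of a list of 29 genes in the table that make and use microRNAs, 28 were tested, among them Drosha, Dgcr8, Xpo5, Dicer1 and Ago2. None was called in cluster Tg, miR-24 Tg, miR-23 Tg or DKO. In miR-27 Tg, Prkra, a partner of Dicer, rose by a log2 of 0.84 ± 0.19 (SE, adjusted p of 0.015) and Cnot7, a deadenylase subunit, fell by 0.41 ± 0.11 on the log2 scale (0.039). These 2 of 28 stand beside 8.95% of all rows called in that comparison. The F test over the 6 genotypes called 3, Cnot7, Prkra and Tarbp2, another partner of Dicer, against 19.0% of all rows. Median log2 differences over the list lay between -0.21 (miR-27 Tg) and 0.07 (cluster Tg).

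At the edge of the rule, the members with the lowest third-highest value were Mir5131 at 3.27 RPKM, Mir3473f at 5.45 and Mir8118 at 5.47. The nearest rows outside were Mir5114 at 0.252 RPKM, Mir3069 at 0.0697 and Mir5046 at 0.0428, although Mir5114 reached 424 RPKM in its highest library. No row lay between 0.252 and 3.27 RPKM. The value of Mir5131 at the edge, like others of that row, is smaller than 1 read at its length.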

How the data were processed

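Per the labels, total RNA that kept small RNAs was extracted from sorted cells, made into TruSeq RNA libraries and sequenced on a HiSeq. The authors deposited 1 table of RPKM values. The submitters' processing notes name mouse build mm9, HOMER and STAR 2.2.0c; the sources used here do not give gene models, strand or the handling of shared reads. Relative depth came from steps between values under 0.1 RPKM. Hairpin positions are RefSeq's and host genes GENCODE's on GRCm38, matched by symbol (259 of 293), so they are not coordinates of the deposited build. limma 3.58.1 in R 4.3.3 was fitted to log2(RPKM + 1) of all 18 libraries with genotype as the only term and a variance trend, after a test on simulated data. The text names all called rows, the 10 highest by mean RPKM, rows at the edge of the rule and, added after their values were seen, Mir686, Mir142b and rows with reads in 1 set of genotypes only, the 3 largest differences per comparison, the rows of both microRNA lists, and hosts. Members and lists were chosen with earlier results of these data known. With 3 libraries against 3 an exact permutation test cannot go below 0.1.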

Additional observations from a re-analysis of the deposited data

How the results depend on the processing

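Thresholds of 0.5 or 2 RPKM could not change the number of rows with signal, 296, since no third-highest value lay between 0.252 and 3.27. Asking for 6 libraries moved that number by less than 1.5 times. Called rows numbered 11 in cluster Tg, 4 in miR-24 Tg, 8 in miR-27 Tg and 11 in the F test. With DKO replicate 3 and miR-27 Tg replicate 3 left out they became 21, 10, 23 and 36. With only the 6 libraries of the 2 genotypes fitted they were 23 in cluster Tg, 9 in miR-24 Tg, 5 in miR-27 Tg, 3 in miR-23 Tg and 2 in DKO. With no filter on low values miR-27 Tg had 5. Leaving out 1 library at a time gave 7 to 15 in cluster Tg, 2 to 6 in miR-24 Tg, 4 to 15 in miR-27 Tg, 9 to 27 in the F test, and 0 throughout in miR-23 Tg and DKO. The cause of these shifts was not tested. Other pseudocounts, scalings, the 5 RPKM filter and robust variances kept each of the 6 counts within 1.5 times.

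No call changed direction. Of 34 calls of single rows, the alternatives other than single left-out libraries kept 308 of 329 and lost 21, and single left-out libraries kept 263 of 336. The calls of Mirlet7a-1, of Mir29a and of Mir7054 held under every alternative run.

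The labels do not say that a replicate number marks a shared animal or batch, and not every same-numbered pair deviated together, so the libraries were treated as sharing a number only. Deviations of same-numbered libraries correlated between -0.11 and 0.58 over 30 pairs, and 11 were above 0.1; 8 of 15 libraries correlated best with one of their own number. With the replicate block, on 16 libraries, 12 rows were called in cluster Tg, 3 in miR-24 Tg, 7 in miR-27 Tg, 10 in the F test and 0 in miR-23 Tg and DKO. The block took adjusted p above the threshold for Mir103-2 in cluster Tg (0.056), Mirlet7bhg in miR-24 Tg (0.086), Mirlet7g in miR-27 Tg (0.066), and Mir15a, Mir16-1 and Mir181a-1 in the F test (0.073, 0.072 and 0.059). Absolute depth is unknown, and a hairpin with 15 reads over 18 libraries shows little beyond presence or absence.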
